A study of Mus musculus with 90 samples.

Results

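Hypothalamus collected 30 min after a social challenge was represented by 8 of the 90 RNA-seq samples of a study of territorial male mice. The samples were chosen by region, time and exposure in their labels, and they fell into 5 intruder samples (numbered 1 to 5) and 3 control samples (numbered 2, 3 and 5). All animals were resident C57BL/6J males that had been housed with a female, which was taken away 3 h before the test, and the labels used here give no genetic change, drug or age. Intruder residents faced an unfamiliar BALB/cJ male held in a wire mesh cage for 5 min, and control residents faced the same cage with a paper cup in it for 5 min, so the controls also carried the handling and the new object. Both groups then sat in the dark and quiet for 30 min before the brain was dissected. The labels tie each sample to 1 animal, while the series text speaks of pooled RNA, and the files do not show whether a sample holds RNA of more than 1 animal. The comparison asks which hypothalamic transcripts differed after exposure to a male intruder beyond the response to the cage.

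The hypothalamus holds small groups of neurons that release peptides and control hormones, feeding, body temperature, sleep, mating and attack. When neurons fire, they switch on immediate-early genes such as Fos, Junb, Egr1 and Nr4a1 within minutes, without the need for new protein, and the transcripts decay soon after. Their RNA is therefore a common readout of recent neuronal activity, and in the hypothalamus it is used to map the neurons that respond to a rival male. In bulk tissue, fewer responding cells and less RNA per cell cannot be told apart.

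The 8 samples held 48.88 to 54.47 M reads assigned to genes, and 21344 to 21672 genes had at least 1 read in each. Hypothalamic identity was clear in the peptide transcripts: Hcrt, the transcript of orexin, was at 101 to 159 CPM (reads of the gene per 1000000 reads of the sample) in these 8 samples and at most 0.105 CPM in the 10 amygdala and 0.162 CPM in the 10 frontal cortex samples of the same time, in a fit of the 3 regions. Pmch, which encodes melanin-concentrating hormone, was at 258 to 596 CPM against at most 0.736 and 0.573 CPM. Pituitary transcripts were near 0, apart from Cga, the shared subunit of pituitary hormones, at 4.84 CPM in intruder 2, 3.49 CPM in intruder 5 and 2.08 CPM in control 2. Of 37991 gene identifiers, 17676 had enough reads to be tested.

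No gene passed the test between intruder and control samples. The edgeR quasi-likelihood test with Benjamini-Hochberg adjustment called 0 of 17676 genes (0.0%) at an adjusted p below 0.05, and the smallest adjusted p was 1.0. DESeq2 and limma voom also called 0. At an unadjusted p below 0.05, edgeR had 339 genes, DESeq2 304 and voom 365. In edgeR 221 of these were higher in intruder samples (1.25% of the genes tested) and 118 lower (0.668%). All 5 intruder samples lay above all 3 controls in 288 genes (1.63%) and below them in 279 genes (1.58%). The median log2 fold change of all genes was -0.003, and 8566 were higher and 9110 lower. For the 14470 genes with a mean of at least 1 CPM, the 95% interval of the log2 fold change lay within -1 and 1 in 98.3% and within -0.5 and 0.5 in 89.7%.

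Btg2 (ENSMUSG00000020423), an immediate-early gene whose product restrains cell division and guides mRNA decay, had the smallest unadjusted p of all genes. It was at 30.3, 25.8, 29.1, 20.8 and 20.4 CPM in intruder samples 1 to 5 and at 18.3, 19.3 and 16.9 CPM in controls 2, 3 and 5. Every intruder sample was above every control, and intruders 1 and 3 were the highest. The means were 25.3 ± 4.59 CPM (SD, n = 5) and 18.1 ± 1.22 CPM (SD, n = 3), which on the log2 scale differed by 0.48 ± 0.116 (SE) with a 95% interval of 0.24 to 0.72 and an edgeR adjusted p = 1.0. An exact two-sided permutation test over the 56 groupings of the 8 samples gave p = 0.0357, the smallest value that 5 against 3 samples allow. This test was run for 11 genes picked with their values known. Btg2, Fos, Nr4a1, Vip, Tph2, Hspa5 and Hspa8 reached that smallest value, as any gene with groups that do not overlap must, and so did 1.63% of all genes upward and 1.58% downward. The exact permutation p was 0.0714 for Junb, Fosb and Egr1 and 0.286 for Npas4, and none of these values accounts for the choice of the genes among the 17676 tested.

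Fos (ENSMUSG00000021250), which encodes a subunit of the AP-1 transcription factor and is the classic marker of active neurons, stood at 71.3, 47.6, 58.8, 43.6 and 40.2 CPM in the intruder samples. The controls were within about 1 CPM of each other, at 35.5, 36.5 and 36.3 CPM. The groups did not overlap, and the spread lay almost wholly among the intruder samples (SD 12.7 CPM, n = 5, against 0.555 CPM, n = 3). On the log2 scale the groups differed by 0.53 ± 0.183 (SE). This value had a 95% interval of 0.16 to 0.91, rank 36 by p among all genes and an edgeR adjusted p = 1.0. Without intruder 1 the log2 fold change was 0.40.

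Nr4a1 (ENSMUSG00000023034), an orphan nuclear receptor induced by activity, was the third immediate-early gene whose groups did not overlap. Its values were 54.4, 32.6, 41.7, 34.2 and 34.6 CPM in intruder samples and 30.5, 29.7 and 29.7 CPM in controls. This was 0.40 ± 0.148 (SE) in log2, with a 95% interval of 0.09 to 0.70 and rank 71. Intruder 1 was again the highest, and without it the log2 fold change was 0.26.

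The upstream regions of these 3 genes are shown because they are the immediate-early genes whose groups did not overlap. Each is the 250 bases before the annotated start in RefSeq (GRCm38.p6), 5′ to 3′ on the gene's strand. Capitals mark the cyclic AMP response element TGACGTCA or its half-site TGACG, read on both strands, so that CGTCA marks a half-site on the opposite strand; every full element also holds 2 overlapping half-sites.
Fos, chr12:85473640-85473889, plus strand: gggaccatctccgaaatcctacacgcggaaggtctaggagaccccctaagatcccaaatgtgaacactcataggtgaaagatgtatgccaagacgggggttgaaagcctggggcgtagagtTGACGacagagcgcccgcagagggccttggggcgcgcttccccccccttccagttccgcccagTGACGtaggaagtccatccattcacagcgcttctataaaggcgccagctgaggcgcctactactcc
Btg2, chr1:134079156-134079405, minus strand: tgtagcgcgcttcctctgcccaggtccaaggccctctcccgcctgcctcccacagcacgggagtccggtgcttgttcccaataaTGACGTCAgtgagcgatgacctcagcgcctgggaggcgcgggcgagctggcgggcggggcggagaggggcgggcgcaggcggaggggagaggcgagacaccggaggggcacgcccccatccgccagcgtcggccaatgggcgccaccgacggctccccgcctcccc
Nr4a1, chr15:101266596-101266845, plus strand: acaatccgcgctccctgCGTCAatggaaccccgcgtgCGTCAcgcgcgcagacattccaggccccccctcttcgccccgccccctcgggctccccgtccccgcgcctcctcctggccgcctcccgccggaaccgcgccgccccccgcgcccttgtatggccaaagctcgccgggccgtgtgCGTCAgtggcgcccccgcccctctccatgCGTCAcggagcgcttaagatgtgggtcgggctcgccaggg

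Btg2 held 1 full element, Fos 2 half-sites and Nr4a1 4 half-sites. Among all 32851 RefSeq promoter windows of the same 250 bases, 508 (1.55%) held the full element and 5836 (17.8%) a half-site. Of the 50 immediate-early genes described next, 38 had windows in that table, 55 windows in all, of which 31 held a half-site and 5 the full element. A match describes letters in a window and does not show that a factor was bound there.

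**Figure D1:**
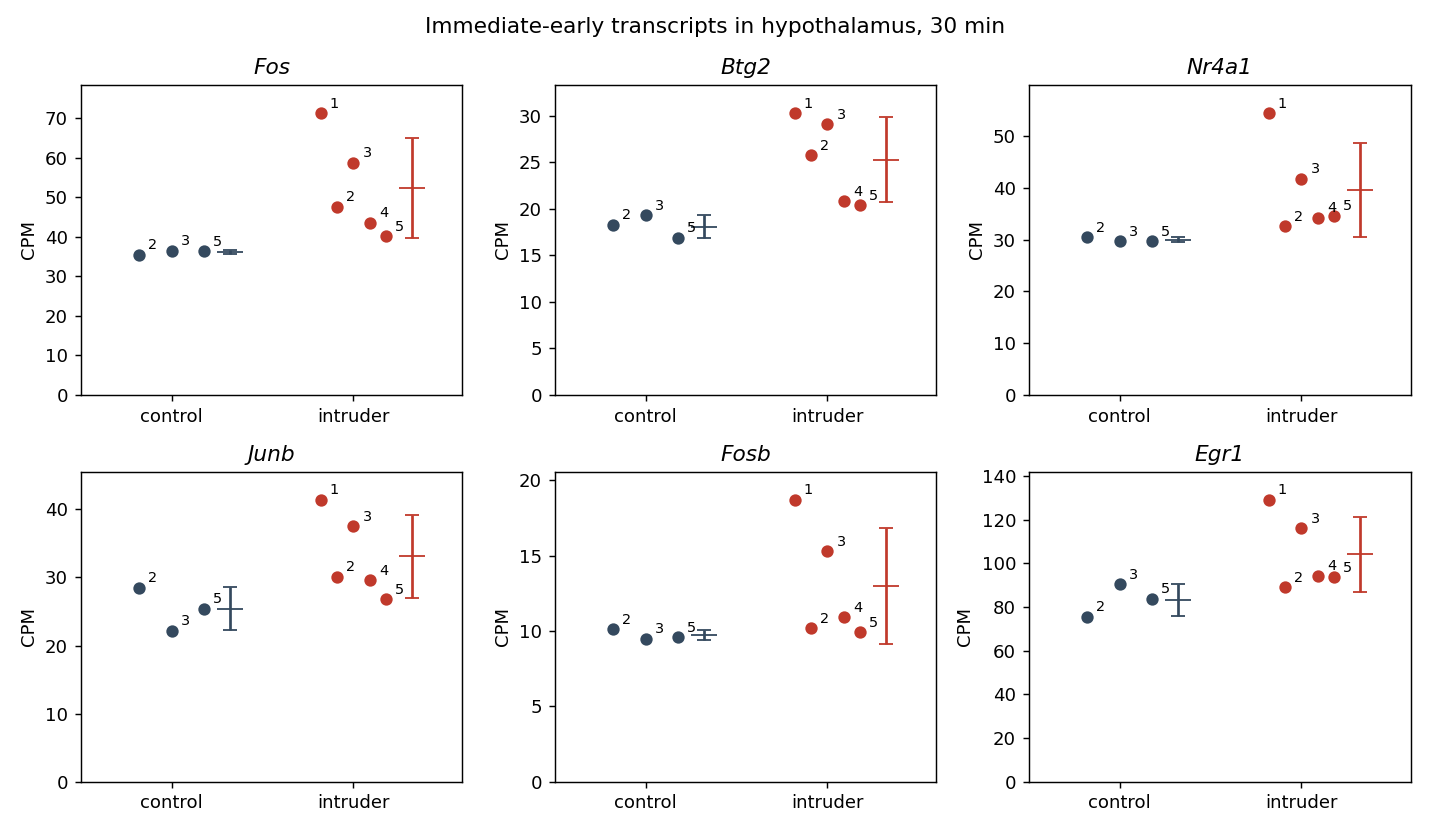
Transcript level (CPM, linear axis from 0) of 6 immediate-early genes in each of the 3 control (grey) and 5 intruder (red) samples, numbered by replicate, with the mean and SD beside the points. Intruder samples 1 and 3 are the highest in all 6 genes, and the groups do not overlap for Fos, Btg2 and Nr4a1.

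The immediate-early list held 50 genes, and all 50 had enough reads to be tested. Intruder samples were higher in 40 of the 50 and lower in 10, with a median log2 fold change of 0.104, while 48.5% of all genes were higher and their median was -0.003. None was called. Unadjusted p was below 0.05 for 6 members, all of them higher (221 of 17676 genes, 1.25%), and 3 were non-overlapping upward (1.63% of all genes). The highest of the 8 values belonged to intruder 1 in 25 of the 50 genes and to intruder 3 in 9, while control 5 held the lowest value in 17. The median was 0.051 without intruder 1 (35 of 50 higher) and 0.058 without control 5 (32 of 50), and was 0.159 without control 2 (40 of 50). Intruders 3, 4 and 5 share a leading sequencing index with all 3 controls and intruders 1 and 2 carry another. Within the shared index the median was 0.055, with 39 of 50 higher, and with the index as a block it was 0.052. The log2 fold change within the shared index was 0.37 for Btg2, 0.40 for Fos and 0.30 for Nr4a1. With all samples these were 0.48, 0.53 and 0.40.

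Among the 7 AP-1 genes, 6 were higher, with a median of 0.169, and Fos, Fosb and Junb had an unadjusted p below 0.05. The median was 0.054 without intruder 1, 0.098 without control 5 and 0.048 with the index block. Junb (ENSMUSG00000052837), a partner of Fos in AP-1, was at 41.4, 30.1, 37.5, 29.6 and 26.8 CPM in intruder samples and 28.5, 22.2 and 25.4 CPM in controls, so the groups overlapped only through intruder 5 and control 2. Its log2 fold change was 0.38 ± 0.138 (SE), rank 51. Fosb (ENSMUSG00000003545), whose splice product builds up with repeated activity, was at 18.7 and 15.3 CPM in intruders 1 and 3, while the other intruder samples, at 9.91 to 10.9 CPM, sat near the controls at 9.49 to 10.1 CPM. The log2 fold change of Fosb was 0.42 ± 0.195 (SE), and 0.25 without intruder 1. Jun (0.17), Fosl2 (0.13) and Jund (0.08) had smaller positive values. Fosl1 was at most 0.355 CPM, and its -0.37 carries a 95% interval of -1.22 to 0.47.

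The 5 genes of the Egr group, zinc finger factors with their corepressor Nab2, were all higher, with a median of 0.326, and none had an unadjusted p below 0.05. Egr1 (ENSMUSG00000038418) was at 129, 89.0, 116, 94.2 and 93.7 CPM in intruder samples and 75.6, 90.3 and 83.8 CPM in controls, where only control 3 reached into the intruder range. The log2 fold change was 0.33 ± 0.17 (SE), with an interval of -0.02 to 0.67. Egr4 was at 3.44 to 6.77 CPM against 3.73 to 4.22 CPM, a difference of 0.41 ± 0.227 (SE). Egr2, at 1.13 to 4.66 CPM, had the widest interval of the group, -0.24 to 1.28. Among the nuclear receptors of the Nr4a group, Nr4a3 had a log2 fold change of 0.20 ± 0.184 (SE) and Nr4a2 of -0.04 ± 0.27 (SE). The median of the 3 Nr4a genes was 0.202, and 0.032 without intruder 1 and 0.329 without intruder 2.

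The list of neuronal activity genes held 12 genes, many of them acting at synapses or as secreted factors. Of these 9 were higher, with a median of 0.086, which was 0.154 or 0.022 with control 2 or 5 left out and 0.029 without intruder 3. Npas4 (ENSMUSG00000045903), a factor induced by calcium entry in neurons, was at 14.3, 13.5, 14.5, 11.9 and 9.23 CPM against 12.3, 9.30 and 10.3 CPM, so intruder 5 was the lowest of all 8. Its log2 fold change was 0.25 ± 0.123 (SE), rank 338, and 0.16 within the shared index. Arc, a regulator of glutamate receptor traffic at synapses, was at 21.7 to 30.6 CPM against 20.9 to 22.3 CPM, a log2 fold change of 0.21 ± 0.155 (SE), and 0.13 without intruder 1. Bdnf (0.13), Homer1 (-0.09) and Vgf (-0.03) had intervals that included 0. The 23 general immediate-early genes, which respond to growth factors and stress in many cell types, had a median of 0.065 with 18 higher. This median was 0.009 without intruder 1 (14 higher), 0.027 without control 5 (13 higher), 0.117 without control 2 (18 higher) and 0.140 without control 3 (20 higher). Besides Btg2 the smallest p in this group belonged to Sik1, a kinase that restrains CREB signalling, at 32.9 to 45.2 CPM against 29.0 to 34.7 CPM (0.20 ± 0.0995, SE), and to the phosphatase Dusp1, at 17.6 to 22.4 CPM against 16.4 to 18.9 CPM (0.17 ± 0.0894, SE). Sik1 was at 0.12 without intruder 1 and 0.13 without control 2, and Dusp1 at 0.10 within the shared index.

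**Figure D2:**
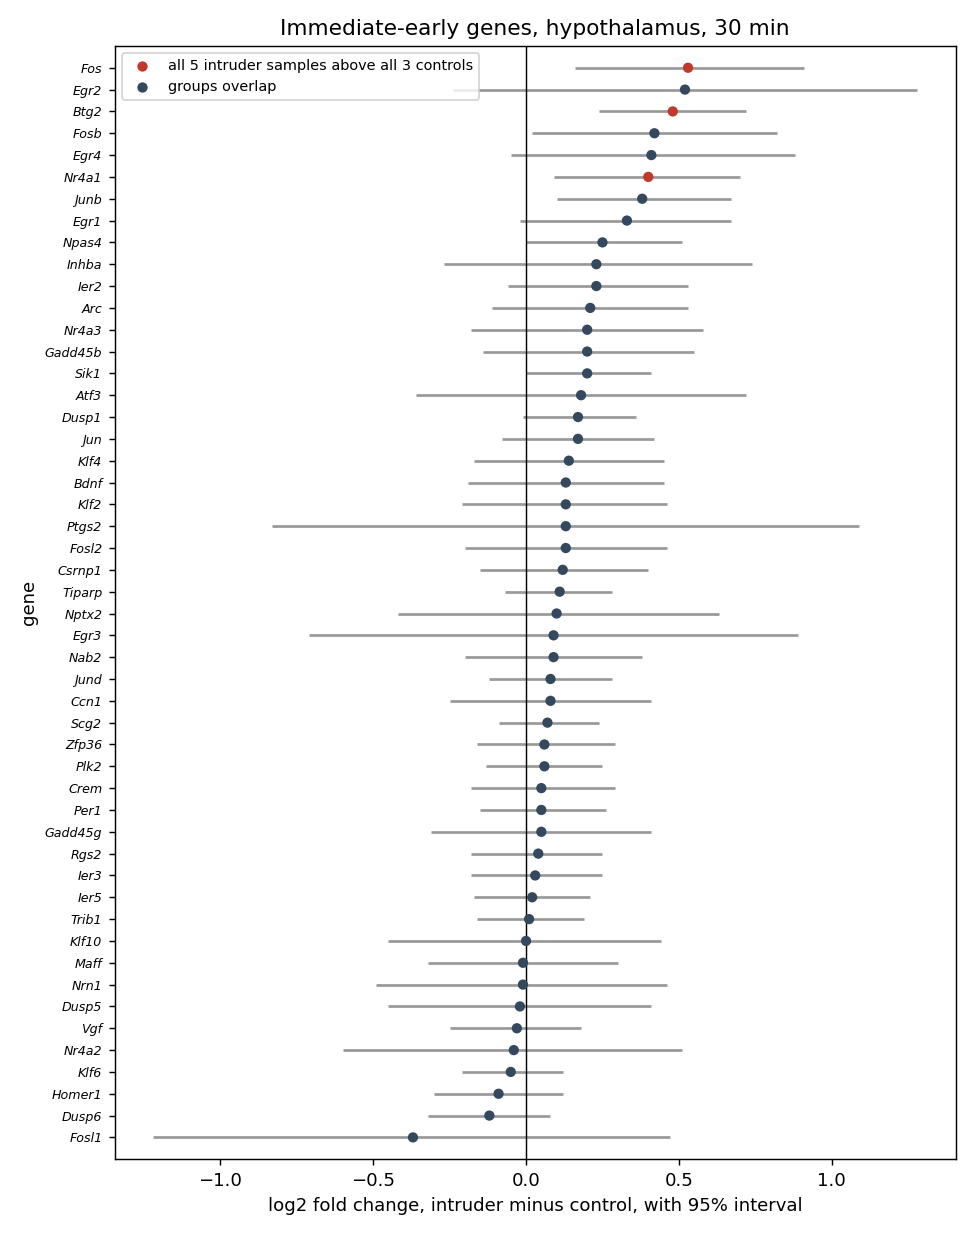
Log2 fold change (intruder minus control, x axis) of the 50 immediate-early genes with 95% intervals, ordered by value. The 3 red genes, Fos, Btg2 and Nr4a1, have all 5 intruder samples above all 3 controls, 40 of the 50 values lie above 0, and most intervals include 0.

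The later time points show how these transcripts stood against the 30 min level. Controls were highest at 30 min as well. Their mean Fos was 36.1, 24.3 and 10.8 CPM at 30, 60 and 120 min, and their mean Nr4a1 30.0, 21.5 and 13.4 CPM. Btg2 in hypothalamus was at 12.1 ± 0.631 CPM (SD, n = 5) in intruder and 12.1 ± 1.70 CPM (SD, n = 5) in control samples at 60 min, and at 10.5 ± 0.995 and 10.4 ± 0.717 CPM at 120 min, so its 2 groups lay apart at 30 min alone among the 3 times. The 30 min log2 fold change minus the mean of the later ones was 0.47 ± 0.136 (SE), with an edgeR adjusted p = 0.998. Nr4a1 had differences of -0.20 at 60 min and 0.13 at 120 min, and a 30 min minus later value of 0.43 ± 0.174 (SE) with an edgeR adjusted p = 0.998. Junb followed with -0.19 and 0.14. Fos differed from these, with -0.07 at 60 min and 0.54 at 120 min, a value close to that at 30 min, and its 30 min minus later value was 0.30 ± 0.214 (SE). In 33 of the 50 genes the intruder minus control log2 difference was larger at 30 min than the mean of that at the later times, against 8791 of all 17676 genes, and the median of this value was 0.042 for the list and -0.001 for all genes. Over the 50 the median difference was 0.039 at 60 min and 0.082 at 120 min.

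**Figure D3:**
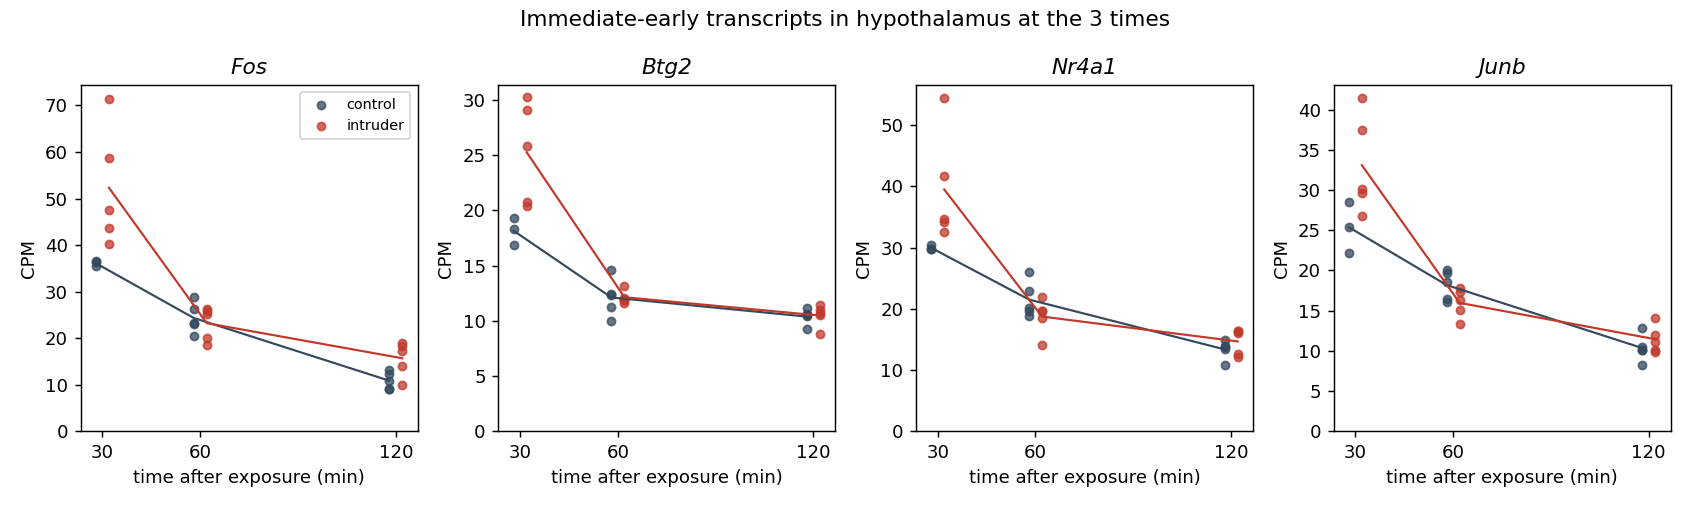
Transcript level (CPM, linear axis from 0) of 4 immediate-early genes against time after the exposure (30, 60 and 120 min) in hypothalamus. Points are samples (3 controls at 30 min, 5 samples in every other group), shifted sideways by exposure, and lines join the group means. The means of both groups, intruder (red) and control (grey), are highest at 30 min for each gene.

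Whether the intruder effect at 30 min differed from that at the later times was tested for all genes. EdgeR called 0 of 17676 genes, with 633 at an unadjusted p below 0.05 (3.58%), DESeq2 had 0 and 608, and voom 0 and 658. The samples of 30 min carry the mark ISO in their column names and those of 60 and 120 min the mark CERV, which the labels used here do not explain, so time and this mark cannot be told apart. The mark is shared by all intruder and control samples of 30 min.

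Amygdala and frontal cortex were sampled at 30 min in 5 intruder and 5 control animals each, among them all 8 animals described here. There Fos had a log2 fold change of 0.39 in amygdala and 0.20 in frontal cortex, Btg2 of 0.38 and 0.53, and Nr4a1 of 0.26 and 0.07. The hypothalamus value minus the mean of the other regions was 0.24 ± 0.289 (SE) for Fos, 0.03 ± 0.254 (SE) for Btg2 and 0.23 for Nr4a1. Animals did not keep one order in the 3 regions: in the fit of the 3 regions intruder 1 had the highest Fos in hypothalamus at 66.6 CPM, while in frontal cortex intruder 4 had 128 CPM and intruder 1 had 67.0 CPM. Over all genes, the test of a difference between hypothalamus and the other regions called 0 of 17851, with 265 at an unadjusted p below 0.05 in edgeR (1.48%), 224 in DESeq2 and 265 in voom. These fits and the SE above had no term for the animal, although the regions share animals. With animals as a block edgeR called 0, with 481 at an unadjusted p below 0.05.

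Most of the other genes with the smallest p are known for other roles than activity. Vsig10, an immunoglobulin-domain membrane protein, was at 3.22 to 3.71 CPM in intruder samples and 2.46 to 2.89 CPM in controls, without overlap and 0.37 ± 0.101 (SE) apart in log2. Arl13b, a small GTPase of the primary cilium, was at 15.9, 15.5, 15.7, 14.6 and 15.9 CPM against 13.3, 14.6 and 13.3 CPM (0.18 ± 0.0538, SE), so intruder 4 lay only just above control 3. Tipin, a partner of Timeless at the replication fork, was at 8.45 to 9.79 CPM against 6.80 to 7.79 CPM (0.30 ± 0.0955, SE). Tacc3, a spindle protein, was at 6.26 to 6.96 CPM against 5.15 to 6.04 CPM (0.25 ± 0.0815, SE). The other genes in the 12 higher ones were Eva1a (0.35), Gm15860 (0.55), Exd1 (0.43), Gm13630 (0.46), Mtf2 (0.15) and Taf1b (0.15), all with an edgeR adjusted p = 1.0. For 8 of the 12, Btg2 and Fos among them, the groups did not overlap (1.63% of all genes), which choosing them by smallest p favours. Eva1a was at 0.23 without control 5 and Gm15860 at 0.34 without control 2.

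On the lower side, Gtf2ird1, a transcription factor of the region deleted in Williams syndrome, had the smallest p (-0.33 ± 0.0994, SE). Its 5 intruder samples lay at 36.8 to 40.1 CPM and controls 3 and 5 at 41.5 and 39.4 CPM, while control 2 stood apart at 65.6 CPM. Without control 2 its log2 fold change was -0.06. Senp3, a protease that removes SUMO, was tighter, at 57.7 to 61.1 CPM against 62.5 to 64.7 CPM, without overlap and with a log2 fold change of -0.10 ± 0.0319 (SE). P4ha1, an enzyme of collagen maturation, was at 56.2 to 64.8 CPM against 69.0 to 76.0 CPM (-0.28 ± 0.104, SE). Mlxipl, the carbohydrate response factor ChREBP, was at 2.70 to 3.11 CPM against 3.56 to 3.73 CPM (-0.30 ± 0.105, SE). Opa3 (-0.17), Plekho1 (-0.20), Parvg (-0.40), Gm11525 (-0.36), Rbm45 (-0.10) and Zdhhc18 (-0.13) were also below every control in all 5 intruder samples, and Fuk (-0.17) and Zbtb3 (-0.32) overlapped. Groups did not overlap downward in 1.58% of all genes, and choosing by smallest p favours such genes.

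Heat and cold shock genes mostly leaned the other way from the immediate-early genes, but not in intruder 1. Of 17 genes of protein folding and temperature response 15 were lower in intruder samples, with a median of -0.104, none at an unadjusted p below 0.05 and 4 below every control (1.58% of all genes). These were Hspa5, Hspa8, Hsp90ab1 and Chordc1, chaperones or their helpers. Over the 17 genes the mean log2 of CPM with 1 added was 7.24 in intruder 1, above the controls at 7.04 to 7.13. The other intruder samples were at 6.80 to 6.93. Intruder 1 also had the highest such mean over the 50 immediate-early genes, at 4.24. Hspa8, the constitutive HSP70, was at 1319, 1187, 1287, 1310 and 1316 CPM against 1338, 1402 and 1429 CPM, so the gap between intruder 1 and control 2 was small beside the spread. Its log2 fold change was -0.11 ± 0.0735 (SE). Chordc1 was at 94.3 to 108 CPM against 109 to 126 CPM (-0.18 ± 0.0955, SE). Hspa1a and Hspa1b, the inducible HSP70 genes, are near-identical copies whose reads may be split or dropped. Hspa1a was at 43.7 CPM in intruder 1, at 9.81 to 14.4 CPM in the other intruder samples and at 21.5, 23.1 and 13.4 CPM in controls, so intruder 1 was above all controls, intruder 3 lay among them and the other 3 intruder samples were below them. The RNA-binding proteins induced by cooling, Cirbp (0.11) and Rbm3 (0.04), were the 2 members that were higher.

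For the same 17 genes the 30 min difference was mostly below the later ones. The 30 min value was below the later mean in 16 of the 17, with a median of -0.25, and 10 had an unadjusted p below 0.05 against 3.58% of all genes, though 0 were called. The list medians were -0.104 at 30 min, 0.055 at 60 min and 0.282 at 120 min. Markers of vessels and blood had negative medians at 120 min, at -0.549 for 8 endothelial, -0.546 for 8 mural and -0.573 for 5 red cell genes, against 0.029, -0.018 and 0.058 at 30 min. The endothelial score, the mean log2 of CPM with 1 added, was 3.79 to 4.33 in intruder and 4.54 to 4.66 in control samples at 120 min. The mural score was 3.03 to 3.28 against 3.56 to 4.01, and the red cell score 3.33 to 3.83 against 3.71 to 4.43. Their part in the heat shock values was not tested. Hsph1, which helps to refold aggregates, shows the pattern: it was at 462 ± 44.4 CPM (SD, n = 5) in intruder and 521 ± 18.7 CPM (SD, n = 3) in control samples at 30 min, 509 ± 45.8 against 485 ± 37.2 CPM at 60 min, and 613 ± 114 against 485 ± 29.5 CPM at 120 min.

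Energy genes had small negative medians, which shrank with the sequencing index as a block. Glycolysis and citrate cycle genes had a median of -0.050, with 33 of 34 lower, nuclear genes of oxidative phosphorylation -0.044, with 71 of 76 lower, and mitochondrial genes -0.050, with 12 of 12 lower. None had an unadjusted p below 0.05, and 5 of the 76 nuclear genes lay below every control in all intruder samples (1.58% of all genes). Gapdh was at 679 to 754 CPM against 747 to 793 CPM (-0.09 ± 0.0591, SE), and Cox8a, a subunit of cytochrome oxidase, at 148 to 177 CPM against 181 to 202 CPM without overlap (-0.18 ± 0.0915, SE). Of the 6 neuron markers 6 were lower, with a median of -0.087, and their part in these medians was not tested. Without control 3 only 47 of the 76 nuclear genes were lower and their median was -0.015, and 24 of the 34 glycolysis and citrate cycle genes (-0.023). Without control 2 these medians were -0.084 and -0.078. The mitochondrial median was -0.093, -0.027 or -0.019 with control 2, 3 or 5 left out, and -0.032 or -0.028 with intruder 1 or 2 left out. The nuclear one was -0.029 without intruder 2. With the index block the medians were -0.031 for glycolysis and citrate cycle genes (29 of 34 lower), -0.025 for nuclear genes (56 of 76) and -0.009 for mitochondrial genes (8 of 12). Ribosomal protein genes had a median of 0.010 with 56 of 83 higher. With 1 sample left out this ran from 23 of 83 (control 5, median -0.016) to 72 of 83 (control 2, median 0.054).

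**Figure D4:**
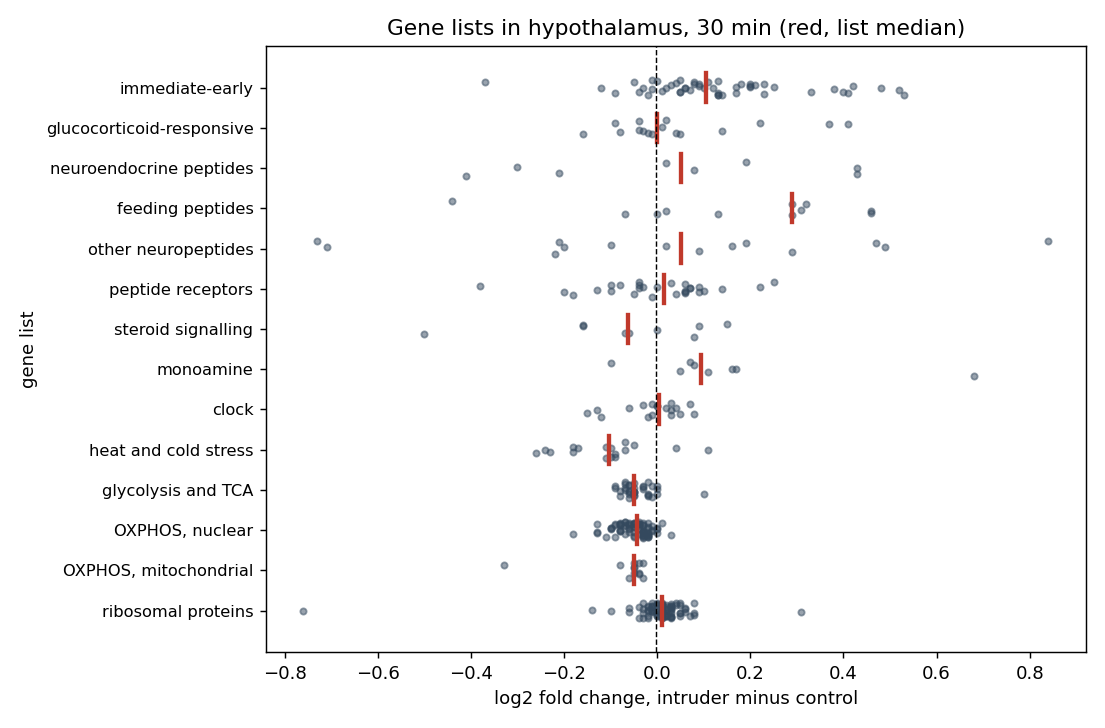
Log2 fold change (intruder minus control, x axis) of every tested member of 14 gene lists (points, spread vertically at random), with the list median in red and the median of all genes as a dashed line. Immediate-early genes sit above 0 with a median of 0.104, heat and cold stress genes below it at -0.104, and peptide lists scatter widely.

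Stress hormone targets did not separate the groups. Of 16 genes that respond to glucocorticoids, 8 were higher and 8 lower, with a median of -0.001 and none at an unadjusted p below 0.05. Fkbp5, a chaperone that dampens the glucocorticoid receptor, was at 31.0 to 46.0 CPM in intruder and 28.9 to 41.7 CPM in control samples (0.01 ± 0.189, SE). Sgk1, a kinase induced by steroids, was at 53.0 to 93.8 CPM against 62.6 to 120 CPM (-0.09 ± 0.29, SE). In each case the ranges overlapped. The glucocorticoid list median was 0.118 without control 3 and -0.102 without control 5. The 18 clock genes were among the tightest, with a median of 0.003 and values from -0.15 to 0.08, and their median ran from -0.054 without control 5 to 0.044 without control 2. The steroid receptors Esr1 (-0.16), Pgr (-0.06) and Nr3c1 (0.00), which set the response of this tissue to hormones, all had intervals that included 0.

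Peptide transcripts of the hormone axes varied more between samples than between groups. Avp, which encodes vasopressin, was at 368, 322, 301, 227 and 191 CPM in intruder samples and 266, 191 and 170 CPM in controls. The fitted difference was 0.43 ± 0.323 (SE, log2), with an interval of -0.23 to 1.09. Oxt, which encodes oxytocin, was at 187 to 320 CPM against 113 to 304 CPM (0.19 ± 0.291, SE). Crh, the releasing hormone at the top of the stress axis, was at 3.54 to 11.5 CPM against 1.94, 10.8 and 12.2 CPM (-0.30 ± 0.524, SE). Trh (0.08), Sst (0.02) and Gnrh1 (-0.21) likewise had overlapping groups. With the index as a block the value for Avp was 0.20, and with a score of arcuate markers as a covariate it was 0.08. Of the 8 neuroendocrine peptides tested, 5 were higher, and the median was 0.051. Leaving out 1 sample moved this median, to -0.093 without control 2, which turned its direction, and to 0.162 without control 5. With intruder 1, 2 or 5 left out it was 0.014, 0.031 or 0.112, and with the index block -0.028.

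Vip, a peptide of the suprachiasmatic clock nucleus, was the only listed peptide whose groups did not overlap, at 16.5, 15.4, 17.2, 12.6 and 11.9 CPM against 8.36, 5.21 and 11.1 CPM (1.63% of all genes did not overlap upward). The log2 value was 0.84 ± 0.441 (SE), with an interval of -0.07 to 1.74. The other markers of that nucleus did not share one direction: Nms was at 0.49, Lhx1 at 0.21, Rgs16 at -0.33 and Prok2 at -0.71. Tph2, the serotonin-synthesising enzyme of raphe neurons, was also non-overlapping (0.387 to 0.611 against 0.260 to 0.375 CPM, a log2 fold change of 0.68 ± 0.286, SE), at a level that rests on few reads, and was the only one of the 8 monoamine genes tested without overlap, beside the same 1.63% of all genes. Among 28 peptide receptors tested, 14 were higher and 14 lower, and none had an unadjusted p below 0.05. Their median was 0.014, and with 1 sample left out it ran from -0.030 (control 3) to 0.053 (control 2). Crhr1, the receptor for corticotropin-releasing hormone, had the smallest p of them, at 9.27 to 11.4 CPM against 10.7 to 12.6 CPM (-0.18 ± 0.0941, SE).

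The widest differences ran between individual samples, in markers of particular nuclei. Agrp and Pomc, the opposing hunger and satiety peptides of the arcuate nucleus, were lowest in the same 3 samples, where Agrp was near 0 and Pomc was not. Agrp was at 0.197 CPM in intruder 4, 0.250 CPM in control 3 and 0.0559 CPM in control 5, and at 3.15 to 10.1 CPM in the other 5. Pomc was at 9.36, 6.55 and 3.71 CPM in those 3 samples and at 31.4 to 75.4 CPM in the rest. Hdc, the enzyme that makes histamine in tuberomammillary neurons, was at 4.48 to 5.03 CPM in the same 3 samples and at 32.9 to 98.4 CPM in the others. In all, 2 of the 3 controls and 1 of the 5 intruder samples were low in these 3 genes, and control 2 held the highest value of each.

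Genes of these nuclei had wide intervals. The log2 fold change was 0.31 for Agrp, with a 95% interval of -1.73 to 2.35, and 0.46 for Pomc, with -0.97 to 1.90. Without control 2 the value for Pomc was 2.95, with an edgeR adjusted p = 0.934. The 11 feeding peptides had a median of 0.290 with 8 higher, which was 0.740 without control 2 and -0.002 without control 3. It was 0.040 with control 5 left out, and 0.134 or 0.116 with intruder 2 or 3 left out. Monoamine genes had a median of 0.094, which ran from -0.101 without control 5 to 0.441 without control 2. The arcuate marker score, the mean log2 of CPM with 1 added, ran from 2.85 to 4.40 in intruder samples and from 2.41 to 4.63 in controls.

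Control 3 differed in another way. Its thalamus markers stood apart, with Prkcd at 59.6 CPM against 13.8 to 19.8 CPM in the other 7 samples, Tcf7l2 at 71.4 against 17.3 to 31.4 CPM and Synpo2 at 37.4 against 11.6 to 13.2 CPM. Adora2a, a receptor of striatal output neurons, was at 8.53 CPM there and at 1.28 to 4.13 CPM elsewhere. In all 8 thalamus and all 7 striatum markers the control mean was the higher one, with medians of -0.322 and -0.315 and no member at an unadjusted p below 0.05. Control 5 held more smooth muscle transcript, with Acta2 at 18.1 CPM against 7.82 to 10.1 CPM. Oligodendrocyte, microglia, endothelial and astrocyte lists had medians between -0.054 and 0.034.

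**Figure D5:**
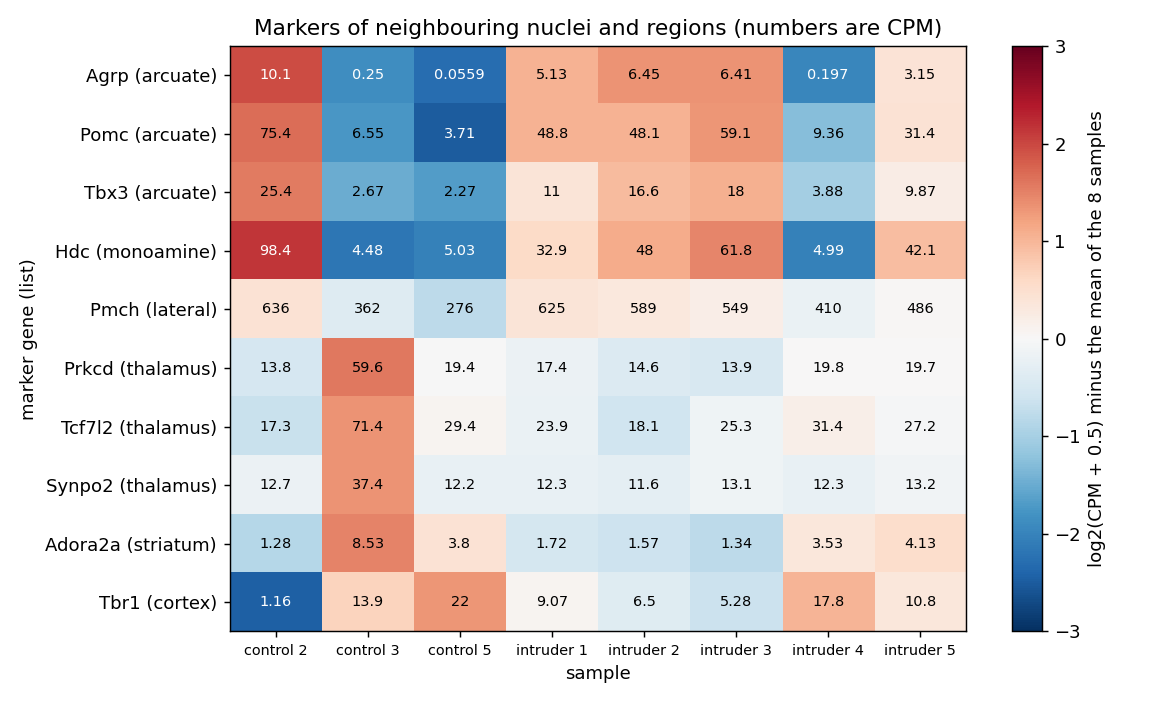
Transcript level (CPM, printed in each cell) of 10 marker genes in the 8 samples, coloured by log2(CPM + 0.5) minus the mean of the 8 samples. Agrp, Pomc, Tbx3 and Hdc are low in controls 3 and 5 and intruder 4 and highest in control 2, and the 3 thalamus genes are highest in control 3.

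Of the 30 genes with the largest spread over the 8 samples, picked for that spread among genes with a symbol and a mean of at least 1 CPM, 18 were highest in control 2, 9 in control 5, 2 in control 3 and 1 in an intruder sample. Those highest in control 2 included Lmx1b and Foxa1, factors of the posterior hypothalamus and midbrain, and Hdc. Those highest in control 5 included Chat, Lhx6 and Gbx1, genes of the basal forebrain. The SD of these 30 genes over the samples was 1.12 to 1.78 (log2), against a median of 0.08 over all genes with at least 1 CPM. With the arcuate score as a covariate, a setting chosen after these values were seen, Btg2 was at 0.39, Fos at 0.55 and the immediate-early median at 0.079. With the same covariate the nuclear genes of oxidative phosphorylation were at a median of -0.015 (49 of 76 lower) and those of glycolysis and the citrate cycle at -0.016 (22 of 34). With it 9 of 83 ribosomal protein genes and 8 of 12 mitochondrial genes were higher, so these small list medians changed sign with it (-0.041 and 0.011). The other lists with this covariate included heat and cold stress genes at -0.089, monoamine genes at -0.080 and feeding peptides at 0.111, and Vip was at 0.74. The arcuate score includes Agrp and Pomc, which are also feeding peptides, so the covariate in part sets the feeding value. No score of another nucleus was used as a covariate.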

How the data were processed

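RNA of dissected hypothalamus was sequenced as poly(A)-selected, strand-specific, single-end libraries, per the labels' protocols. The submitters' processing notes name CASAVA 1.8.2, TopHat2 2.0.8, HTSeq 0.6.1, edgeR 3.2.4, R 3.0.0 and the build NCBIM37. The authors deposited whole-number read counts for 37991 Ensembl identifiers, 32919 of which were matched to a symbol. The 5 rows of unassigned reads were left out, among them reads without a feature (11.37% to 11.99% of the total in these 8 samples) and reads not aligned uniquely (9.98% to 10.34%). Which strand setting was used in counting is not given in the sources used here, and copies of a gene that share sequence are uncertain.

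All 28 hypothalamus samples (6 groups) were fitted with edgeR 4.0.16 under R 4.3.3, with the spread pooled over them (biological coefficient of variation 11%). Genes were kept by filterByExpr, scaled by TMM and tested with the two-sided quasi-likelihood F test with Benjamini-Hochberg adjustment over all genes tested. CPM are on TMM-scaled library sizes. The 30 min samples of the 3 regions were fitted together for the region test, without a term for the animal in the main fit. SE is the fold change divided by the square root of F, and intervals use the t distribution of the fit. Exact permutation tests used log2(CPM + 0.5) in scipy 1.17.1. Intervals cover the spread between samples. The reads have no molecular identifiers, so reads of 1 sample are not independent molecules.

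The text names the 12 higher and 12 lower genes with the smallest p among those with a symbol and a mean of at least 1 CPM, and members of the lists. The samples described and the lists were chosen with earlier results of these data known. Equal replicate numbers were checked for pairing (correlations of deviations 0.35, -0.22 and 0.08 for numbers 2, 3 and 5), and were not treated as pairs. Alternatives were other scalings, no filter, DESeq2 1.42.0, limma 3.58.1 voom, leaving out each sample, index and replicate blocks, the 30 min samples alone, the shared index alone, and the arcuate score as a covariate. No 2 samples of a group were alike within sampling noise (chi-square per degree of freedom 4.38 to 31.0). The edgeR hypothalamus fit was run on simulated counts with the same spread for all genes. Those counts lack the differences between samples seen in markers of nuclei, so that run does not bear on them. Results for some genes are not reported here.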

Additional observations from a re-analysis of the deposited data

Results flagged for a closer look

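In 6 of 85 quantities compared over the 5 intruder samples, 1 sample lay farther from its nearest neighbour than Dixon's critical value of 0.71 of the range allows, where chance gives about 1 in 20. Intruder 4 was that sample in 4 marker scores (mean log2 of CPM with 1 added): 2.23 for the mammillary list, with the next sample at 3.22, 2.87 for tanycytes and ependyma, with the next at 3.53, 7.96 for astrocytes, with the next at 8.09, and 3.93 for steroid signalling, with the next below it at 3.79. Controls 3 and 5 had similar values, 2.24 and 2.16 for the mammillary list and 3.05 and 2.99 for tanycytes and ependyma. Zbtb3 stood at 3.68 CPM in intruder 1, with the next sample at 3.29 CPM. Hspa8 stood at 1187 CPM in intruder 2, with the next at 1287 CPM.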

How the results depend on the processing

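The comparison of intruder and control at 30 min gave 0 called genes under all 18 alternatives run, and the region difference 0 under all 14. The time difference gave 0 to 1 called genes when a sample was left out. The 1 call, Gm16099, came without intruder 5. It was 0 under the other alternatives. At an unadjusted p below 0.05 the 30 min comparison held 816 genes without control 2, 584 with the 30 min samples alone, 632 with the arcuate covariate and 545 of 27410 without the filter, against 339, and fewer within the controls' index (219) or with the index block (229). Without control 2 such genes were 1118 for the time difference, against 633, and 831 for the region difference, against 265. A replicate block gave 363 such genes and 0 calls, and a block of animals in the region test 481 and 0 calls. The 42 genes followed in 756 values kept their direction except Pomc, which was at -0.002 without control 3 and ran from -0.06 (without control 5) to 2.95 (without control 2) when a sample was left out. The adjusted p of Btg2 ran from 0.436 (without intruder 5) to 1.0. Over all genes the smallest edgeR adjusted p of the 30 min comparison was 0.103, without intruder 5 and not for Btg2. For the region difference it was 0.0515, without control 2. Each sample held 48.88 M reads or more, and the intervals rest on the spread pooled over all 28 hypothalamus samples. Leaving out 1 sample changed the sign of several list medians, among them those of the neuroendocrine, feeding and monoamine genes.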
